A study of Mus musculus with 24 samples.

Results

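Stable distal H3K27ac sites are stretches of chromatin, away from the ends of protein-coding genes, that were acetylated at lysine 27 of histone H3 in mouse erythroleukaemic cells both with and without doxycycline. A site is a peak of the untreated H3K27ac list that overlapped exactly 1 treated peak, which itself overlapped no other untreated peak, with the overlap covering at least 50% of both peaks. It also lay over 1 kb from any annotated end of a protein-coding gene. Members were thus chosen by their measured H3K27ac positions, and their number, overlap and width are descriptions. Of 28902 untreated peaks on assembled chromosomes, 20974 overlapped a treated peak, 14693 were paired with exactly 1 treated peak, 12537 passed the overlap minimum, and 5365 of these were distal. The 5365 sites made up 18.6% of all untreated peaks and 29.1% of the 18408 distal untreated peaks (exact Clopper-Pearson 95% interval 28.5 to 29.8%). Near gene ends, 7172 untreated peaks were stable by the same overlap rule, 68.3% of the untreated peaks there.

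The treated cells had 48 h of doxycycline, which induces a short hairpin RNA against Spi1, and the untreated cells had none. All cells came from line #763 of TgSpi1 leukaemic erythroid cells of bone marrow origin, which carry a Spi1 transgene, overexpress SPI1 and hold the inducible hairpin. They grew in medium with erythropoietin before treatment. SPI1 (PU.1) belongs to the ETS transcription factors and directs myeloid and B cell development. The series has 24 samples, of which 4 peak lists were used: H3K27ac and H3K4me1, each treated and untreated. No cells given doxycycline without the hairpin were used, so effects of the drug and of the hairpin cannot be told apart. In bulk chromatin, fewer cells with a mark and less of the mark per cell cannot be told apart either.

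H3K27ac is laid down by the acetyltransferases p300 and CBP and marks active enhancers and promoters. H3K4me1 is laid down mainly by MLL3 and MLL4 and covers enhancers whether or not they are active, while it is usually depleted at the core of active promoters, where H3K4me3 takes its place. In red cell precursors, enhancers bound by GATA1, TAL1, LMO2 and KLF1 drive globin and haem genes, and SPI1 can oppose GATA1.

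The treated H3K27ac list held 23341 peaks over 41.2 Mb and the untreated list 28902 peaks over 41.5 Mb. The treated H3K4me1 list held 101388 peaks over 195.4 Mb and the untreated list 119362 peaks over 184.0 Mb. There was 1 list per mark and condition, so no difference could be tested against replicate spread, and all intervals cover counting error over peaks only. The read depth is unknown. Of 14 erythroid marker genes, 14 had H3K27ac within 1 kb of a gene end in the treated list and 10 in the untreated list. Any overlap was counted, and the smallest was at Gata1, with 42 bp treated and 389 bp untreated. The markers without it in the untreated list were Alas2, Slc4a1, Hba-a1 and Hbb-bs. None of 9 myeloid, 3 T cell and 4 stromal or endothelial markers had it in either list, and 1 of 4 B cell markers, Cd79a, had it in both. The part of the erythroid marker difference in the results on erythroid genes was not tested. By the nearest gene end, stable distal sites were assigned to 1 of the 14 erythroid markers, Zfpm1. They were assigned to 2 of the 9 myeloid markers, Csf1r and Fcgr3, and to 1 of the 3 T cell markers, Lck. Of the 4 stromal or endothelial markers 1, Kdr, had sites, and of the 4 B cell markers 0. Over all protein-coding genes the share with a site was 15.8%.

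Several sites held an annotated transcription start inside a gene, away from its outer ends, so sequence is shown for 5 of them. Each line gives the RefSeq promoter window on GRCm38.p6 (the assembly of mm10), from 250 bases before to 50 bases after the start, in the direction of the gene. All 5 windows lay wholly inside both the treated and the untreated peak. Capitals mark GATAA, the core of the GATA factor motif, and GGAAGT, a core of the ETS motif that SPI1 binds, on either strand. Runx1 encodes a master regulator of blood stem cells, Pik3cd the delta catalytic subunit of phosphoinositide 3-kinase in white blood cells, Xiap an inhibitor of caspases, Casp8 an initiator caspase and Bcl2l1 the survival protein BCL-XL. The Runx1 window had neither motif, those of Pik3cd and Xiap had both, that of Casp8 had GATAA alone and that of Bcl2l1 had GGAAGT alone.
Runx1, chr16:92697280-92697579, minus strand: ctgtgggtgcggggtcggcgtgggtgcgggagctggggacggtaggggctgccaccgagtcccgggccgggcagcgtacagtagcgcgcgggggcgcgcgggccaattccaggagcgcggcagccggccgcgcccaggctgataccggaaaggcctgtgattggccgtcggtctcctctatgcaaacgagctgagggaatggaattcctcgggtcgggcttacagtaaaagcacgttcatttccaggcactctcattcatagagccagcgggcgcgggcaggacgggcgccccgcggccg
Pik3cd, chr4:149698659-149698958, minus strand: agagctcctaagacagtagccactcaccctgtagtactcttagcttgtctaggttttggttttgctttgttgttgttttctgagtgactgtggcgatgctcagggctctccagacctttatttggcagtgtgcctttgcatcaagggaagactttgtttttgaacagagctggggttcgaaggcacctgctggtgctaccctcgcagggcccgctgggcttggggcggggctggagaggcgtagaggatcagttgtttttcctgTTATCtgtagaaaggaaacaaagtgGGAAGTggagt
Xiap, chrX:42068148-42068447, plus strand: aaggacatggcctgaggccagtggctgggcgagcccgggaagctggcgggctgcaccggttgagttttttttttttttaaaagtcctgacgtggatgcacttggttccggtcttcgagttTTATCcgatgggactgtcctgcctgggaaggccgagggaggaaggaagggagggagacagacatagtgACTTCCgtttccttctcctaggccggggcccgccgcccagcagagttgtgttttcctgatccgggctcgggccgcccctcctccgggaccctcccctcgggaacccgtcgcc
Casp8, chr1:58802252-58802551, plus strand: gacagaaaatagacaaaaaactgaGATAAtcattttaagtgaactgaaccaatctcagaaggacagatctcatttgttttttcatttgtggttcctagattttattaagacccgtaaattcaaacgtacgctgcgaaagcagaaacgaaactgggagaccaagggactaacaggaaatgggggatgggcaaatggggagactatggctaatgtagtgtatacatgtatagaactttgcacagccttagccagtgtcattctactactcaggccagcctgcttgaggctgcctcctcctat
Bcl2l1, chr2:152830668-152830967, minus strand: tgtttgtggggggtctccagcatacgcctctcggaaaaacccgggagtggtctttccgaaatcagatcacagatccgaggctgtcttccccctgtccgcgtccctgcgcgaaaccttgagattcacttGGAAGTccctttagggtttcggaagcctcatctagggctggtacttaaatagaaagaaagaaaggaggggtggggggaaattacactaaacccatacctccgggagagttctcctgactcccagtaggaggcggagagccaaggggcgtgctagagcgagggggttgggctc

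The Runx1 site around this start was 4003 bp wide in the treated list and 3703 bp in the untreated list. The Xiap site was 2603 bp in both. The Pik3cd site was 3803 bp treated and 4853 bp untreated, the Casp8 site 1703 bp treated and 2053 bp untreated, and the Bcl2l1 site 1353 bp treated and 1753 bp untreated. With no minimum difference asked, the Runx1 site thus had the larger width in the treated list. The Xiap site had equal widths, and the other 3 had smaller widths in the treated list. H3K4me1 was absent from the centre of the Runx1 and Xiap sites in both lists and present at the centre of the Pik3cd and Casp8 sites in both. At the centre of the Bcl2l1 site it was present in the treated list alone.

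Other sites held miRNA genes. The sites contained 20 whole hairpins in 18 sites, with 36 mature miRNAs and 36 different seeds, so no seed was shared. Of the 20 hairpins, 17 also lay wholly inside the treated peak. The mature strands below belong to miRNAs with known roles: miR-17 and miR-18a come from the growth-promoting cluster named after miR-17 and miR-92, let-7i is a let-7 family member, miR-210 is induced in hypoxia, miR-22 acts in blood cells and miR-9 in the nervous system, and miR-212 shares its transcript with miR-132. Capitals mark the seed, bases 2 to 8, and the sequences are from RefSeq on GRCm38.p6.
mmu-miR-17-5p: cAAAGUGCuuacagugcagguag
mmu-miR-18a-5p: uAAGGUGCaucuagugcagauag
mmu-let-7i-5p: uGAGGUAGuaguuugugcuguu
mmu-miR-210-3p: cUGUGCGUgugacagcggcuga
mmu-miR-22-3p: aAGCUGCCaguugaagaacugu
mmu-miR-212-3p: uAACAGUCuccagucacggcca
mmu-miR-9-5p: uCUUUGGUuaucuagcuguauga
The site with miR-17 and miR-18a (chr14:115039249-115043951) was 5203 bp wide in the treated list and 4703 bp in the untreated list. The treated peak ended inside the miR-18a hairpin, while the miR-17 hairpin lay inside both peaks. The let-7i site (chr10:122983849-122989301) was 5103 bp treated and 5453 bp untreated. The miR-210 site, near Rassf7 (chr7:141221199-141221651), was 653 bp treated and 453 bp untreated. The miR-212 site (chr11:75172249-75173651) was 2003 bp treated and 1403 bp untreated. The miR-22 site (chr11:75461549-75464101) was 2053 bp treated and 2553 bp untreated, and its hairpin lay past the edge of the treated peak. The miR-9 site near Mef2c (chr13:83737049-83740251) was 3553 bp treated and 3203 bp untreated.

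The sites had the same median width in both conditions, 1353 bp treated and 1353 bp untreated. The middle 50% ranged over 803 to 2253 bp treated and 803 to 2153 bp untreated, and the extremes were 203 and 16953 bp treated and 153 and 17953 bp untreated. Together they covered 9.26 Mb in the treated list, 22.5% of its H3K27ac length, and 9.04 Mb in the untreated list, 21.8% of its length. The median ratio of treated over untreated width was 1.01. A site was called wider where its untreated width was at most 0.8 times its treated width, and narrower where its treated width was at most 0.8 times its untreated width. By this call 1347 sites (25.1%) were wider in the treated list and 1132 (21.1%) were narrower. Among all 14693 pairs, distal or not, 24.1% were wider and 19% narrower, and because the rule used these widths nothing is read from the shares. Widths in the treated list followed those in the untreated list (Spearman rho 0.893 over 5365 sites, which share both lists and were selected on overlap). In 74 sites the coordinates were identical, and the centre moved by a median of 100 bp.

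**Figure D1:**
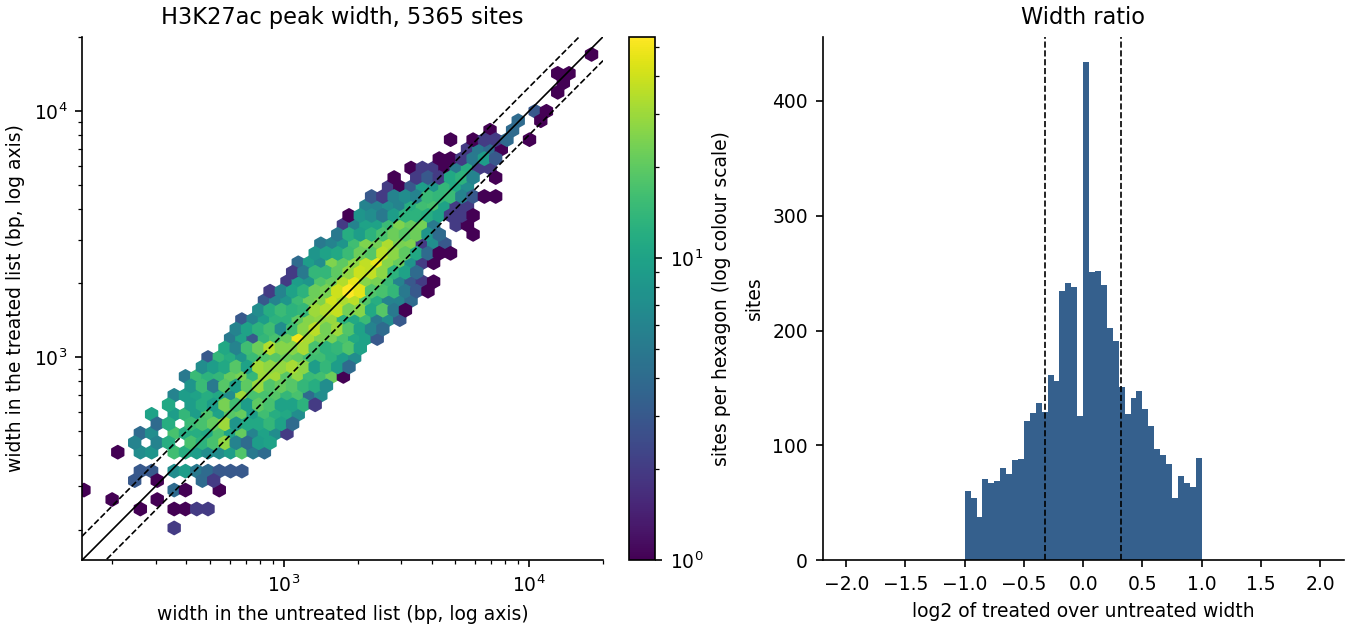
Width of the 5365 sites, treated (vertical) against untreated (horizontal), in bp on log axes with colour for the number of sites per hexagon, and the histogram of the log2 ratio of treated over untreated width. Dashed lines mark the limits of the calls wider and narrower. Sites scatter on both sides of equality, with 1347 wider and 1132 narrower in the treated list, and the rule bounds the ratio between 0.5 and 2.

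Split into 4 groups of equal size by the geometric mean of both widths, and from the narrowest group to the widest, 33.1%, 22.7%, 24.2% and 20.4% of sites were wider and 22.4%, 28.9%, 21.25% and 11.9% narrower. The rule used these widths, so the shares are a description. The widest site, inside Pde4d, which encodes a cyclic AMP phosphodiesterase (chr13:109676499-109694451), was 16953 bp treated and 17953 bp untreated. The site in Homer1, a scaffold protein gene, was 14103 bp treated and 14453 bp untreated. The site in Mtss1, an actin-binding protein gene, was 14103 bp treated and 13303 bp untreated. The site in Exoc6, an exocyst subunit gene, was 13403 bp treated and 13603 bp untreated. Of the 10 widest sites, the one near Max, the partner of MYC, had the most different widths, 7803 bp treated and 10153 bp untreated.

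Members just inside the limits of the rule and peaks just outside them had similar values. Just inside the 50% overlap lay a site near Coq2, an enzyme gene of coenzyme Q synthesis, with 4203 bp treated and 2103 bp untreated, and an overlap of 50.04%. Just outside lay a peak near Pdzk1ip1 with 3953 bp treated, 1953 bp untreated and an overlap of 49.4%. Just inside the distance limit, sites at Dipk1b and Tcf7l2 lay 1002 bp from a gene end, and just outside it a peak at Magix lay at 1000 bp.

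H3K4me1, which the rule did not use, overlapped nearly every site in both lists. Of the 5365 sites, 5324 (99.2%) overlapped an H3K4me1 peak in both lists, 21 in the treated list alone, 3 in the untreated list alone and 17 in neither. By list, and counting any overlap, 99.6% were overlapped in the treated list and 99.3% in the untreated list. The same shares were 98.0% treated and 94.3% untreated at the 3641 treated-only distal peaks, and 96.3% treated and 98.5% untreated at the 7194 untreated-only distal peaks. Overlap alone therefore sets the sites little apart from other distal H3K27ac. The whole untreated H3K27ac peak lay under H3K4me1 at 85.6% of the sites in the treated list and 80.5% in the untreated list. The best H3K4me1 peak over a site had a median score percentile of 93.0 in the treated list and 93.2 in the untreated list. That score is the authors' own, and it ranks peaks within a list only.

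The 17 sites without H3K4me1 in either list included a site in Kcnq1, a potassium channel gene (chr7:143294299-143296501), with 2553 bp of H3K27ac treated and 2203 bp untreated. Another lay near Klrb1c, a natural killer cell receptor gene, with 903 bp treated and 953 bp untreated. Among the sites marked in 1 list alone, the site near Hjv, a hepcidin regulator in iron metabolism, had 406 bp under H3K4me1 in the treated list and 0 bp in the untreated list. The site near Trim27, a ubiquitin ligase gene, had 806 bp treated and 0 bp untreated.

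Within 2 kb either side of the site centre, a window of 4001 bp, H3K4me1 covered a median of 3604 bp in the treated list and 3377 bp in the untreated list. H3K4me1 was longer by at least 500 bp in the treated list at 984 sites (18.3%) and shorter by as much at 194 (3.62%). The window was already full of H3K4me1 at 37.0% of sites in the treated list and 27.2% in the untreated list, which bounds the gain that can be seen. Over all 28902 untreated H3K27ac peaks the same calls gave 17.6% longer and 8.86% shorter. The share with longer H3K4me1 is near that background, and the share with shorter H3K4me1 is below it. Other shared distal peaks had 18.05% longer and 2.99% shorter, and stable gene-end peaks 23.98% longer and 2.30% shorter. The low share with shorter H3K4me1 was therefore not particular to the sites. At the 3641 treated-only distal peaks, 50.3% had longer and 1.04% shorter H3K4me1. The background includes the 7194 untreated-only distal peaks, of which 8.24% had longer and 25.1% shorter H3K4me1. With treated lengths scaled to the untreated total, which is smaller by a factor of 0.942, 10.5% of the sites had longer and 6.95% shorter H3K4me1, and the mean difference changed sign, at -25.1 bp against 172.5 bp as deposited. Scaling shortens the treated length even where the window was full in both lists, so part of this change is built in. Scaled in the same way, 9.94% of all untreated H3K27ac peaks had longer and 12.52% shorter H3K4me1. Scaled likewise, 39.1% of treated-only distal peaks were longer and 2.25% shorter, and 4.73% of untreated-only distal peaks were longer and 31.5% shorter. The sites thus lay between these groups under both scalings, with no test of the differences.

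**Figure D2:**
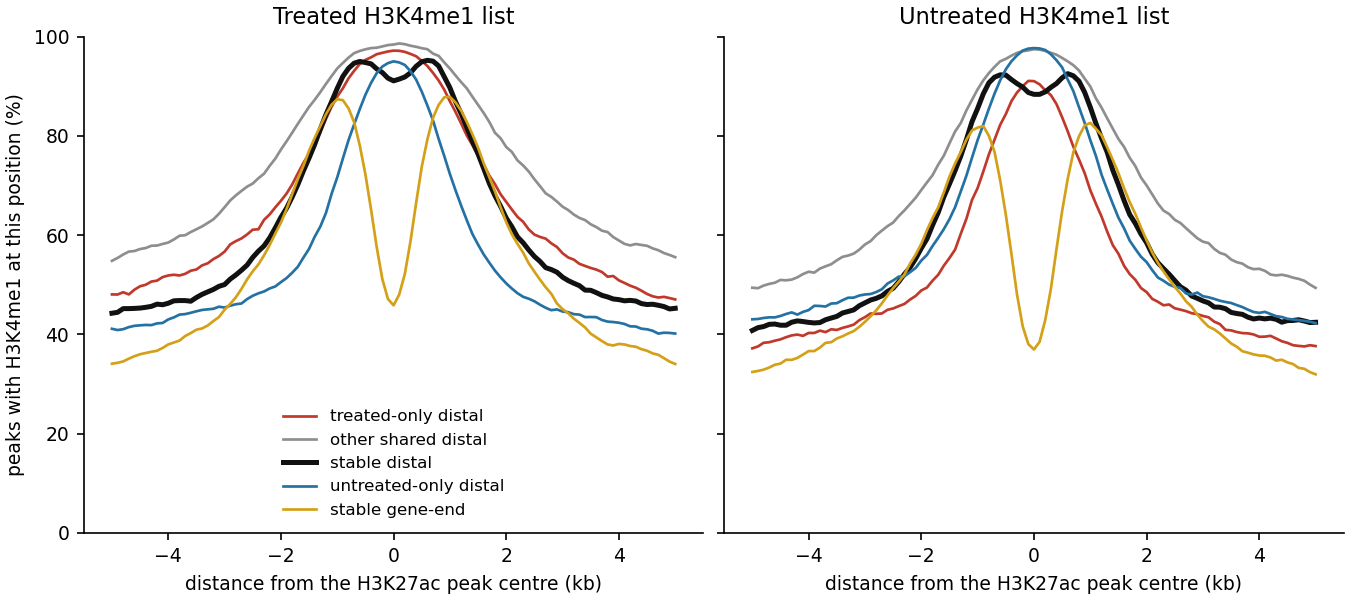
Share of H3K27ac peaks, in percent, with an H3K4me1 peak at each distance in kb from the H3K27ac peak centre, in the treated list (left) and the untreated list (right), for 5 classes of peaks. At the centre of stable distal sites the share is 91.1% treated and 88.4% untreated, against 45.9% treated and 37.0% untreated at stable gene-end peaks.

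H3K4me1 dipped slightly at the centre of the sites. The centre base was covered in 91.1% of sites in the treated list and 88.4% in the untreated list. At stable peaks near gene ends the centre was covered in 45.9% treated and 37.0% untreated, while at untreated-only distal peaks it was covered in 95.04% treated and 97.7% untreated. H3K4me1 reached past both edges of the H3K27ac peak but was absent from the centre at 7.72% of the sites treated and 9.26% untreated.

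At single sites H3K4me1 lengths differed more between the lists. The largest gain was at a site inside Pax6, a transcription factor gene of eye and brain (chr2:105672149-105678251), with 3207 bp of the window covered in the treated list and 855 bp in the untreated list, while its H3K27ac width was 6053 bp treated and 6103 bp untreated. A site in Abca5, a lipid transporter gene, had 4001 bp treated and 1905 bp untreated. The largest loss was near Lta4h, which encodes the enzyme that makes leukotriene B4, with 1503 bp treated and 3158 bp untreated. At Dyrk1b, a kinase gene, H3K4me1 had 2353 bp treated and 4001 bp untreated, although the H3K27ac site was 703 bp treated and 403 bp untreated. Across sites the log2 width ratio and the H3K4me1 difference moved together weakly (Spearman rho 0.187 over 5365 sites, which share the 4 lists). Of sites wider in H3K27ac, 24.0% had longer and 2.00% shorter H3K4me1, and of narrower sites 12.46% had longer and 8.48% shorter.

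The centre dip was deeper in the sites that held a start of transcription than in those without. RefSeq starts were given for 5190 of the sites, and 728 of these (14.0%, interval 13.1 to 15%) contained at least 1. A protein-coding start, inside the gene rather than at its annotated outer ends, lay in 510 sites, and a long non-coding RNA start in 264. The sites with a start were wider, with medians of 1903 bp in both lists, and those without had medians of 1253 bp treated and 1303 bp untreated. H3K4me1 covered the centre of 60.3% of the sites with a start in the treated list and 53.7% in the untreated list. It covered the centre of 96.2% of the 4462 sites without a start in the treated list and 94.2% in the untreated list, and the base 400 bp below the centre in 97.3% treated and 95.1% untreated. At protein-coding starts the centre was covered in 51.8% treated and 45.9% untreated, and at sites with a long non-coding RNA start alone in 80.3% treated and 72.0% untreated.

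**Figure D3:**
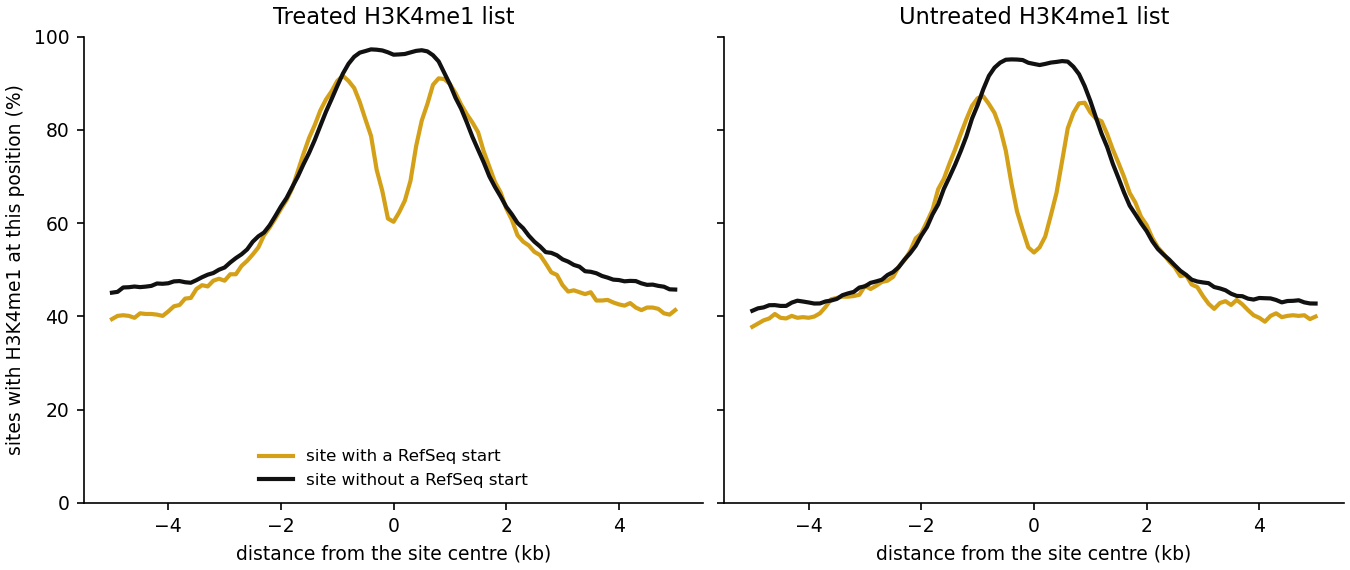
Share of sites, in percent, with an H3K4me1 peak at each distance in kb from the site centre, for 728 sites with a RefSeq start inside and 4462 without, in the treated list (left) and the untreated list (right). At the centre the share is 60.3% treated and 53.7% untreated in sites with a start, and 96.2% treated and 94.2% untreated in sites without, where the dip is shallow.

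The same starts were counted in the other classes. A RefSeq start lay in 72.2% of stable gene-end peaks, 4.8% of other shared distal peaks, 0.968% of treated-only and 1.1% of untreated-only distal peaks. The share of 14.0% in stable distal sites was above those of distal peaks found in 1 condition alone, with no test of the difference. Wide intervals can hold more starts, and the median widths were 1353 bp for stable sites, 553 bp for treated-only and 453 bp for untreated-only peaks. The part of width in this difference was not tested.

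Of promoter windows lying wholly inside sites, 773 were searched for 5 motifs on both strands, beside 6094 windows in stable gene-end peaks and all 32817 windows of the table. None of the motifs contains another. GATAA occurred in 22.1% of windows in sites, 13% in gene-end peaks and 25.4% of all windows. GGAAGT occurred in 26.6% of windows in sites, 32.0% in gene-end peaks and 23.8% of all. The RUNX motif TGTGGT was in 12.4% of windows in sites, 10.5% in gene-end peaks and 16.8% of all. The AP-1-like motif TGANTCA was in 7.37% of windows in sites, 3.71% in gene-end peaks and 7.81% of all. The KLF-type motif CCACNC was in 65.3% of windows in sites, 68.5% in gene-end peaks and 60.4% of all. The median GC content was 60.7% in sites, 63.3% in gene-end peaks and 52.7% over all windows, and its part in these shares was not tested.

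Most sites lay in genes. The body of a protein-coding gene held 3205 sites (59.7%, interval 58.4 to 61.1%), and 2160 were intergenic. The nearest gene end was a median of 12838 bp away, within 5 kb for 1355 sites and over 100 kb for 336. Shares in gene bodies were 60.3% for treated-only and 64.9% for untreated-only distal peaks. On the X chromosome 20.5% of untreated distal peaks were stable (interval 17.6 to 23.7%), below each autosome, which ranged from 25.9% on chromosome 12 to 34.7% on chromosome 13.

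Some sites lay close to others along the genome. Other H3K27ac peaks were not grouped in the same way, so whether the sites gather more than those was not tested. Joined across gaps of up to just over 12 kb, they formed 4250 groups, of which 806 held at least 2 sites and together 1921 sites (35.8%). The largest group had 8 sites in 27.7 kb (chr10:21244999-21272701), between Myb, a transcription factor of blood progenitors, and Hbs1l, a translation recycling factor. These sites covered 10874 bp treated and 10424 bp untreated. This intergenic region is known from mouse and human studies to hold enhancers of Myb. Groups of 7 sites lay at Lactb and Tpm1, with 19721 bp treated and 14871 bp untreated, between Itga4 and Ube2e3, with 12321 bp treated and 13721 bp untreated, in Cyth3, with 12821 bp treated and 11221 bp untreated, and near Olfr1324, with 4521 bp treated and 3921 bp untreated.

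By the nearest gene end, 3450 of 21883 protein-coding genes (15.8%) had at least 1 site, and 90 had at least 5. Myc, a transcription factor of cell growth, had 10 sites with 35980 bp treated and 37180 bp untreated. Bcor, a BCL6 co-repressor, had 10 with 25980 bp treated and 24680 bp untreated. Zeb2, a zinc finger repressor, Chd2, a chromatin remodeller, and Rere, a nuclear receptor co-regulator, had 9 each. Zeb2 sites covered 23877 bp treated and 27427 bp untreated, Chd2 sites 23027 bp treated and 21827 bp untreated, and Rere sites 22477 bp treated and 18777 bp untreated. Nfia, Pip4k2a, Sgms1, Wipf1 and Ifne had 8 each, and so did Runx1, Hbs1l, Ikzf2 and Olfr1324.

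The gene lists were read by counts of sites beside the same over all genes, where 29.1% of untreated distal peaks were stable, 39.1% were absent from the treated list, and 1347 sites were wider and 1132 narrower. Over all genes there were 3641 treated-only and 7194 untreated-only distal peaks. Another 5849 of the 18408 untreated distal peaks overlapped treated peaks in other ways than the rule asks. Assignment was by the nearest gene end. Counting sites within 50 kb of a gene's end instead moved 10 of the 13 lists by over 1.5 times. The globin, haem and membrane list had 40 sites within 50 kb against 19 by the nearest end, the myeloid list 32 against 19, the HDAC, co-repressor and Polycomb list 35 against 18, the apoptosis list 29 against 11, and the housekeeping list 51 against 17. The stem and progenitor list had 25 against 42, the megakaryocyte list 19 against 10, the T cell list 8 against 4, the stromal and endothelial list 7 against 4 and the B cell list 6 against 1. Lists overlap in genes such as Myc and Fli1. Of 134 untreated distal peaks at erythroid transcription factor genes, 31 (23.1%, interval 16.3 to 31.2%) were stable. Another 65 of the 134 overlapped treated peaks in other ways. There were 25 treated-only and 38 untreated-only peaks. Their 31 sites had a median width ratio of 1.1, with 11 wider and 3 narrower. Of them 8 (25.8%) had longer and 0 shorter H3K4me1, against 18.3% and 3.62% of all sites. Lyl1, a relative of TAL1, had 5 sites with 12265 bp treated and 9815 bp untreated. Lmo2, a bridge of the TAL1 and GATA1 complex, had 4 with 10362 bp treated and 8912 bp untreated, and Ikzf1, which encodes Ikaros, had 4 with 6862 bp treated and 8162 bp untreated.

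At globin, haem and red cell membrane genes, 19 of 102 untreated distal peaks (18.6%, interval 11.6 to 27.6%) were stable. Another 61 of the 102 overlapped treated peaks in other ways, so the low stable share is not a measure of lost peaks. There were 46 treated-only and 22 untreated-only peaks. The 19 sites had a median width ratio of 1.106, with 7 wider and 2 narrower. Of them 1 (5.26%) had longer and 0 shorter H3K4me1, against 18.3% and 3.62% of all sites. Epb41, a membrane skeleton gene, had 4 sites with 12762 bp treated and 15562 bp untreated, and Car2, a carbonic anhydrase gene, had 2 with 8506 bp treated and 8356 bp untreated.

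At myeloid genes, 19 of 80 untreated distal peaks (23.8%, interval 14.95 to 34.6%) were stable. Another 17 of the 80 overlapped treated peaks in other ways. There were 8 treated-only and 44 untreated-only peaks, the second being 55.0% of the untreated ones (interval 43.5 to 66.2%). The 19 sites had a median width ratio of 0.834, with 2 wider and 8 narrower. Of them 0 had longer and 2 (10.5%) shorter H3K4me1, against 18.3% and 3.62% of all sites. Cebpb, a myeloid transcription factor gene, had 4 sites with 4812 bp in both lists, 1 of them wider and 3 narrower in the treated list. Spi1 itself had 5.

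**Figure D4:**
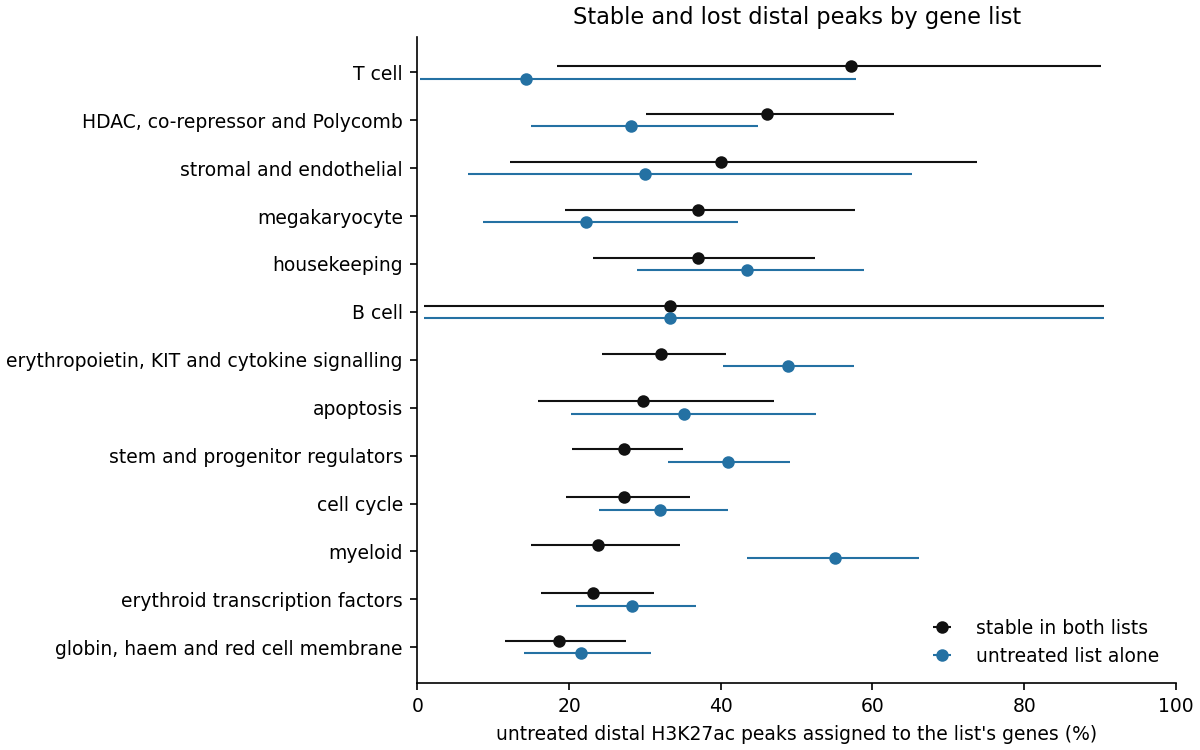
Percent of untreated distal H3K27ac peaks assigned to the genes of each list that were stable in both lists (black) and that were found in the untreated list alone (blue), with exact 95% intervals over peaks. Myeloid genes have 23.8% stable and 55.0% untreated-only peaks, and globin, haem and red cell membrane genes 18.6% stable and 21.6% untreated-only. The shares over all protein-coding genes, 29.1% stable and 39.1% untreated-only, are not drawn. Peaks that overlapped treated peaks in other ways are not drawn, 17 at myeloid genes and 61 at globin, haem and red cell membrane genes.

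In the other lists, stem and progenitor genes had 42 sites with 6 wider and 11 narrower. Erythropoietin, KIT and cytokine signalling genes had 44 with 7 wider and 11 narrower, and cell cycle genes 34 with 8 wider and 10 narrower. Over all sites 25.1% were wider and 21.1% narrower. Pik3r1, a phosphoinositide 3-kinase regulatory subunit, and Sos1, an activator of RAS, had 6 sites each. The stable share of untreated distal peaks was 27.3% for stem and progenitor, 32.1% for signalling, 27.2% for cell cycle, 29.7% for apoptosis, 37.0% for housekeeping, 37.0% for megakaryocyte and 46.2% for HDAC, co-repressor and Polycomb genes (interval 30.1 to 62.8% for the last). It was 57.1% of 7 peaks for T cell, 40.0% of 10 for stromal or endothelial and 33.3% of 3 for B cell genes. HDAC, co-repressor and Polycomb genes had 18 sites, with 7 wider and 9 narrower and a median ratio of 0.848. Hdac7, a class IIa deacetylase, had 4 of these with 4512 bp treated and 7262 bp untreated. Apoptosis genes had 11 sites, led by Xiap and Bcl2l1 with 3 each. Housekeeping genes had 17, with 4 wider and 2 narrower. Megakaryocyte genes had 10, T cell and stromal or endothelial genes 4 each and B cell genes 1.

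Within 100 kb of Spi1 (chr2:91082374-91115759) lay 7 sites, 5 of them nearest to Spi1, with 8671 bp treated and 7221 bp untreated in all. No treated-only and 2 untreated-only distal peaks lay in the same window. Inside the gene, sites at chr2:91096849-91097801 and chr2:91098849-91099851 were 1203 bp each treated and 953 and 1003 bp untreated. Further sites at chr2:91113149-91113701 and chr2:91114249-91114651 were 603 and 503 bp treated and 553 and 403 bp untreated. Outside the gene, the site at chr2:91025999-91029101 was 4103 bp treated and 3103 bp untreated, that at chr2:91078299-91079001 was 553 bp treated and 703 bp untreated, and that at chr2:91194699-91195201 was 503 bp in both lists. The 4 sites inside the gene thus had larger widths in the treated list, and of the 3 outside it 1 was larger, 1 smaller and 1 equal. Knockdown occurs at the RNA level and was not measured by these marks, and whether transgene reads were placed at the gene was not tested.

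At Runx1 6 sites lay within 100 kb, with 11818 bp treated and 12018 bp untreated, and 5 of them were inside the gene. The site at chr16:92785649-92788351, 39.1 kb into the gene from its 5′ end, had the most different widths, at 1803 bp treated and 2703 bp untreated. At Myb there were 9, with 14127 bp treated and 16227 bp untreated, and the narrowest in the treated list was 503 bp treated and 953 bp untreated (chr10:21200299-21201251). The 4 sites of Lmo2 all lay at lower coordinates than the gene and had larger widths in the treated list, by ratios of 1.10 to 1.20. The widest of them (chr2:103892499-103897651) was 6103 bp treated and 5153 bp untreated. Zfpm1, which encodes the GATA1 cofactor FOG1, had 4 sites within 100 kb, with ratios from 0.573 to 1.52, and 1 of them was nearest to Zfpm1. Within 100 kb of Klf1, an erythroid factor of globin genes, lay 3 sites, of Gata2 and Alas2 2 each, and of Gata1, Tal1, Epor and Cdk6 1 each. Among these 7 loci only the Cdk6 site had the named gene as its nearest gene. The sites at the others were nearest to other genes, such as Dand5 and Rnaseh2a at Klf1 and Glod5 at Gata1.

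No site lay within 100 kb of Hba-a1, Hbb-bs, Gfi1b or Kit. Around Hbb-bs, an adult beta-globin gene, 9 untreated distal peaks were shared in other ways than the rule asks, beside 4 treated-only and 1 untreated-only peaks. Around Hba-a1, an adult alpha-globin gene, 5 were shared in other ways, beside 6 treated-only and 0 untreated-only peaks. Within 100 kb of Kit, the stem cell factor receptor gene, 1 distal peak was found, in the treated list alone, while 2 sites farther away had Kit as their nearest gene, with 3856 bp treated and 3806 bp untreated.

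**Figure D5:**
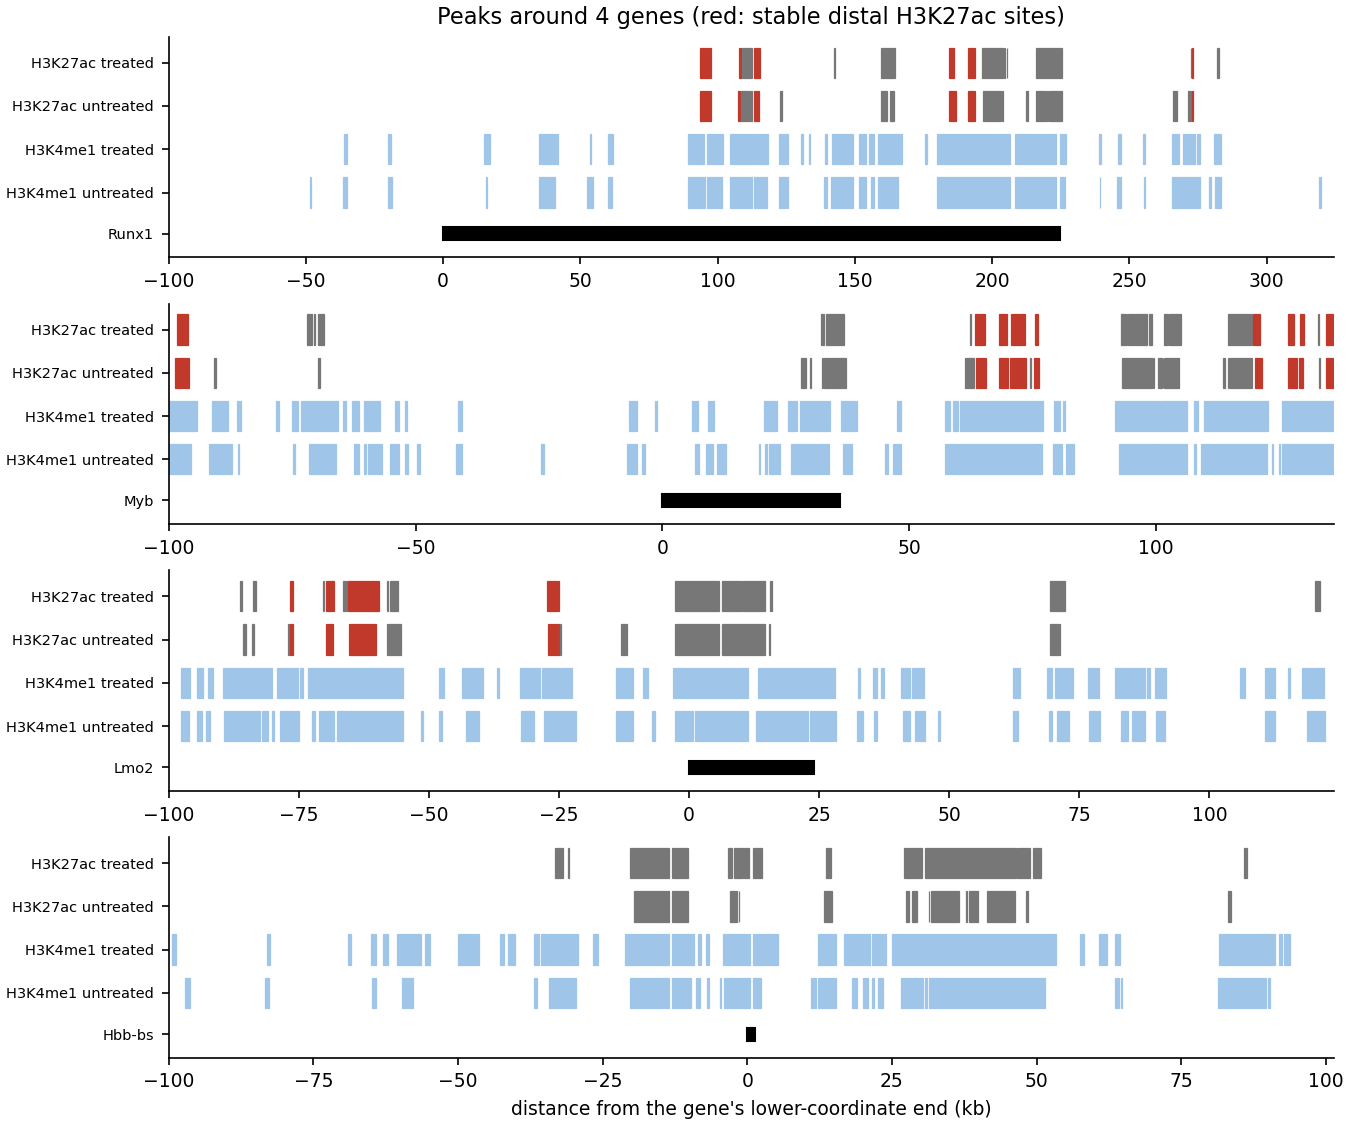
Peaks of the 4 lists within 100 kb of Runx1, Myb, Lmo2 and Hbb-bs, by distance in kb from the lower-coordinate end of the gene, which is drawn as a black bar. Stable distal sites are red, other H3K27ac peaks grey and H3K4me1 peaks light blue, and there are 6 sites at Runx1, 9 at Myb, 4 at Lmo2 and 0 at Hbb-bs.

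A treated-only distal peak lay within just over 12 kb of 1134 sites (21.1%) and an untreated-only distal peak within that distance of 1907 (35.5%). For the 7172 stable gene-end peaks these shares were 8.70% treated-only and 22.8% untreated-only. The neighbours counted came from 3641 treated-only and 7194 untreated-only peaks, so the shares of the 2 kinds are not on the same footing, and no difference was tested.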

How the data were processed

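Cells were profiled by ChIP-seq, and 4 deposited peak lists were used: H3K27ac (linked to replicates 1 and 2 together, per the series' design text) and H3K4me1 (replicate 1). Reads were handled with bcl2fastq 2.17.1.14 and BWA on build mm10, per the submitters' processing notes, and the sources used here do not name a peak caller. The authors deposited positions, a width and, for H3K4me1, a score per peak and a column below 0.01 that may be a p-value; the score was used to rank peaks within a list. Coordinates were read as 1-based. The depth of the lists is unknown. Overlaps, widths, distances and windows came from scripts in Python 3.11.15 (pandas 2.3.3, scipy 1.17.1, numpy 2.4.6), tested on made lists with known answers and checked against bedtools 2.31.1. Figures used matplotlib 3.10.9. Genes, promoters and miRNAs came from RefSeq tables on GRCm38.p6. Promoter records for 175 of the sites, on chromosome 18, were not used. The planned sequences at site centres were not analysed here. No test was possible with 1 list per condition. Members and gene lists were chosen with earlier results of these data known. Named sites follow rules of width, width ratio, H3K4me1 change and locus, and named genes those of site number. The promoter and miRNA examples, and genes named for 1 measure alone, were chosen after their values were seen.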

Additional observations from a re-analysis of the deposited data

How the results depend on the processing

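Of 63 alternative values, 36 stayed inside the limit set for them (1.5 times for counts, the 95% interval for shares and medians) and 27 moved. The number of sites was 2477 with an overlap of 80% of both peaks and 3091 with the wider 50% of each H3K27ac list. With a fold of 1.5, 11.7% of sites were wider and 9.64% narrower. With an 80% overlap 0% were wider and 0% narrower, since that overlap bounds the ratio, and with no minimum share the median ratio was 1.04, with 33.2% wider and 25.95% narrower. With at least 50% of the site covered, H3K4me1 marked 97.0% of sites treated and 94.5% untreated, and in the better-scored 50% of each list it overlapped 98.2% treated and 97.3% untreated. Longer and shorter H3K4me1 were 3.67% and 0.336% with 1 kb either side, 43.0% and 14.8% with 5 kb, 10.5% and 6.95% with treated lengths scaled to the untreated total, 33.9% and 9.62% at 250 bp, 4.04% and 0.540% at 1000 bp, and 19.7% and 5.57% in the better-scored 50%. Sites at listed genes numbered 236, and 359 by a gene end within 50 kb. Among sites without a RefSeq start, an alternative added after seeing the data, 27.05% were wider. Why these values moved was not tested beyond what each setting changes by construction.

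No paired analysis was possible because each condition has 1 list per mark and no list per replicate, and leaving out a replicate was not run for the same reason. Unknown depth, peak caller and handling of H3K27ac replicates limit widths and numbers, and signal height was not measured.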
